A study of Homo sapiens with 16 samples.

Results

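The BCL2 family decides whether the outer membrane of the mitochondrion stays closed, and 10 of its genes were followed here by gene symbol, of 58735 genes in the count table. They are the anti-apoptotic BCL2, BCL2L1, MCL1 and BCL2A1, the effectors BAX and BAK1, and the BH3-only genes BBC3, PMAIP1, BCL2L11 and BIK. The study profiled poly(A) RNA from 4 established human breast cancer lines, grown flat on plastic as monolayers or as free three-dimensional spheroids, with 2 libraries in each of 8 groups. HCC1806 was sampled as spheroids at day 10 and day 20 after seeding and as monolayers, in RPMI medium. BT474 was sampled in the same 3 states in DMEM, CAL148 as monolayers in DMEM and ZR-75-30 as monolayers in RPMI, and all media held fetal bovine serum. HCC1806 and CAL148 are known as triple-negative lines, without hormone receptors or ERBB2 amplification, and BT474 and ZR-75-30 as ERBB2-positive lines. That subtype is background knowledge and not a label. Each line is a single line and each medium goes with certain lines, so between HCC1806 and BT474 the line and the medium cannot be told apart. The groups come from the sample titles, because the treatment field names monolayers for all 16 samples.

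Anti-apoptotic proteins hold the effectors BAX and BAK1 in check, and the effectors, once active, assemble into pores that release cytochrome c and start the caspases. BH3-only proteins sense damage, stress or loss of growth signals and bind the anti-apoptotic proteins, and some also activate the effectors directly. Breast epithelial cells depend on these proteins for survival when they detach from matrix, and BCL2 is a known target of the oestrogen receptor in luminal breast cancer.

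Libraries held 29696360 to 72489000 counts. All 5 epithelial markers were found in every group, the summed basal markers reached 4331 to 8727 CPM in HCC1806 against 77.8 to 109 CPM in BT474, and the summed luminal markers reached 228 to 556 CPM in HCC1806 against 7695 to 9436 CPM in BT474. Levels in CPM are counts scaled to library size, with TMM factors over the 16 libraries. The HCC1806 monolayer pair stood apart. Mitochondrially encoded genes took 14.9% and 0.559% of its counts, the summed interferon-stimulated genes stood at 9050 and 343 CPM, and 8 proliferation genes summed to 557 and 2902 CPM. Over genes, the log2 ratio of replicate 1 to replicate 2 had a standard deviation of 1.53 in HCC1806 monolayers, 0.859 in ZR-75-30 and 0.676 in CAL148, with 0.195 to 0.325 in the remaining groups. ZR-75-30 replicate 2 also had a high mitochondrial share, 17.7%, against 1.60% in replicate 1. The labels do not say whether replicates were separate cultures, so p-values measure only the spread between these libraries. In bulk RNA, fewer cells of a type and less RNA per cell cannot be told apart.

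Spheroid growth went with called changes in both arms of the family, and the direction for BCL2 differed between the lines. These calls rested on the libraries in the fit. In each line another choice of libraries, given below, left no member called. Calls are those of edgeR's quasi-likelihood test with the Benjamini-Hochberg adjusted p over all tested genes under 0.05. In HCC1806 day 10 spheroids against monolayers BCL2, MCL1 and BCL2L11 rose and BAX fell, 4 of 9 members tested, where 8.72% of all genes were called, 5.14% higher and 3.58% lower. At day 20 BCL2 and BCL2L11 rose and BAX fell, with 11.1% of genes called, 6.24% higher and 4.85% lower. In BT474 spheroids against monolayers BBC3, PMAIP1 and BCL2L11 rose and BCL2 fell at day 10, with 12.2% of genes called (6.58% higher, 5.67% lower), and the same 4 members were called in the same directions at day 20, with 14.6% called (7.40% higher, 7.24% lower). The median log2 fold change over the 9 members was 0.47 and 0.13 in HCC1806 and 0.10 and 0.22 in BT474, at day 10 and day 20, against 0 over all genes in each comparison. BCL2A1 had 0 to 4 counts in every library and was tested nowhere. The day 10 and day 20 comparisons of a line share its monolayers.

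**Figure D1:**
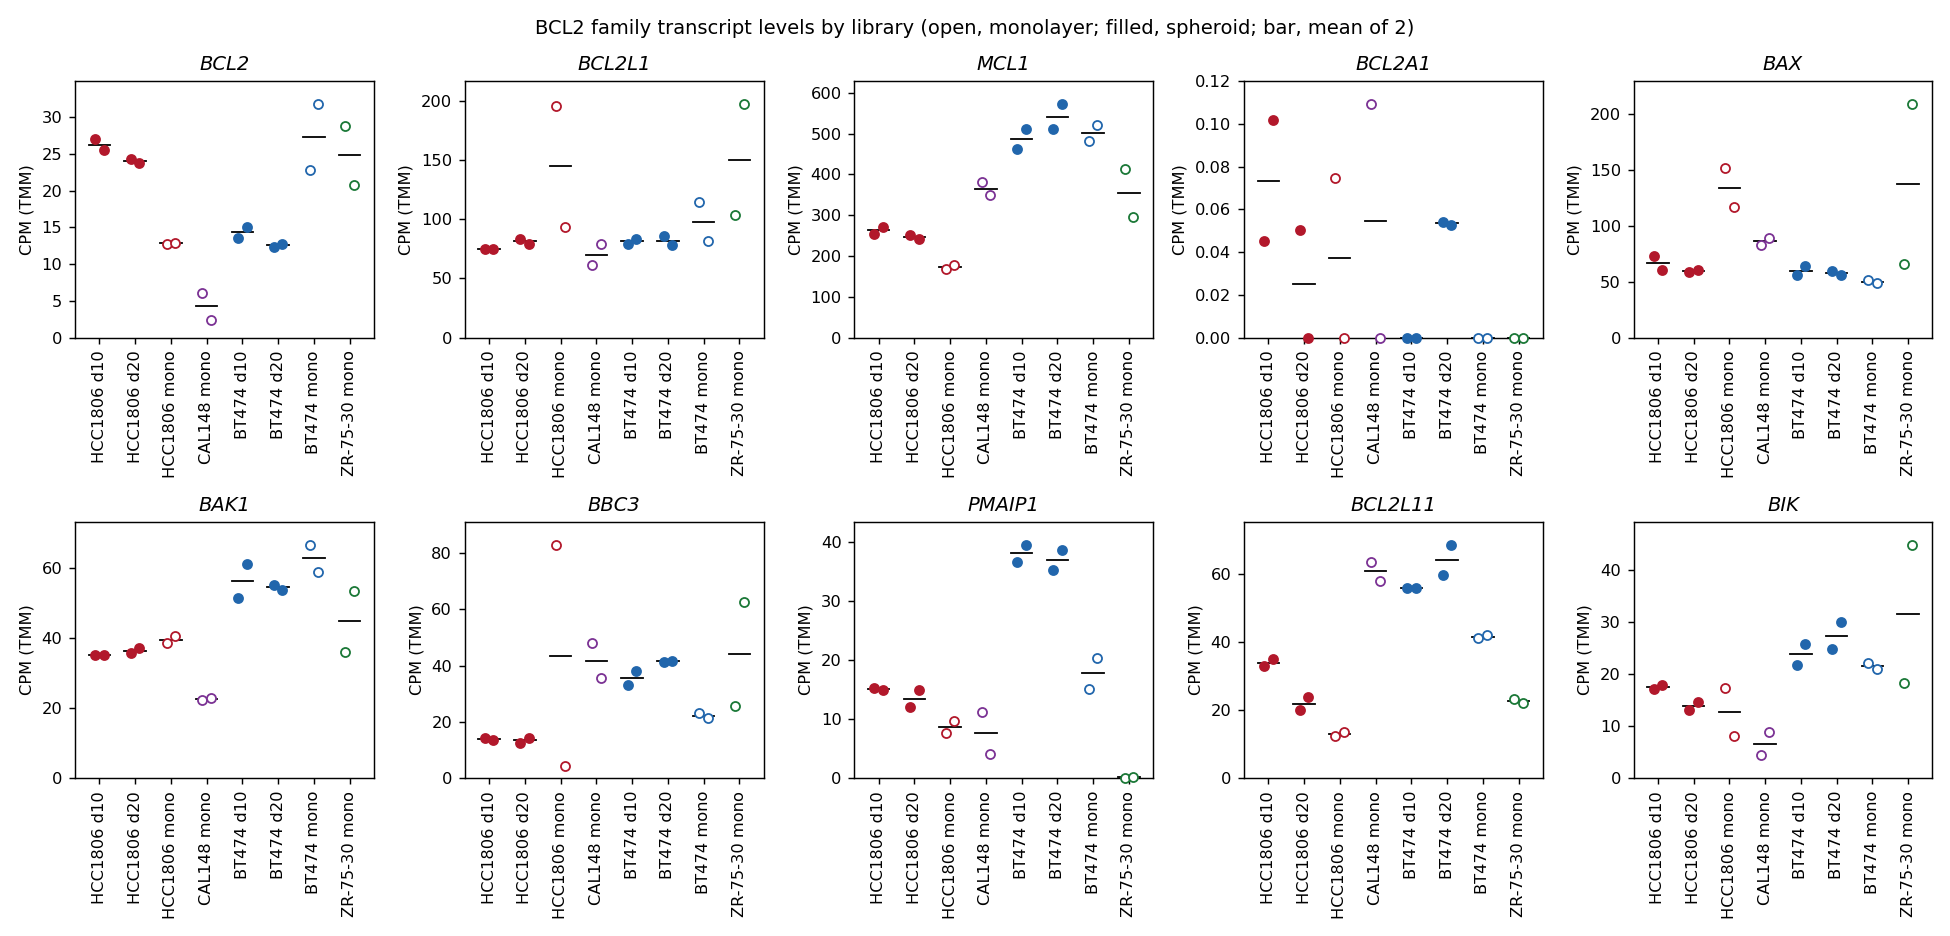
Level of each of the 10 family genes in CPM (vertical axes start at 0) for 2 libraries in each of 8 groups, with a bar at the mean. BCL2 is higher in HCC1806 spheroids than in their monolayers and lower in BT474 spheroids than in theirs, and BBC3 in the HCC1806 monolayers stands at 82.8 and 4.31 CPM.

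BCL2 (ENSG00000171791, GRCh38 chromosome 18, 63123346 to 63320128, minus strand) is the founding anti-apoptotic member and the target of venetoclax. In HCC1806 it stood at 27.0 and 25.5 CPM in day 10 spheroids and 24.3 and 23.8 CPM in day 20 spheroids, against 12.8 and 12.9 CPM in monolayers. In BT474 it stood at 13.6 and 15.1 CPM in day 10 spheroids and 12.4 and 12.8 CPM in day 20 spheroids, against 22.8 and 31.8 CPM in monolayers. No spheroid library overlapped the monolayers of its line, and the order was opposite in the 2 lines. For this and the other members, the share of all genes that separate in such a way was not counted. In HCC1806 BCL2 rose by 1.05 ± 0.21 on the log2 scale at day 10 (adjusted p = 0.0185) and by 0.92 ± 0.21 at day 20 (adjusted p = 0.0247, ± SE of the fit throughout). In BT474 it fell by 0.98 ± 0.15 at day 10 (adjusted p = 0.000645) and by 1.11 ± 0.15 at day 20 (adjusted p = 0.000238). The difference between the lines in the spheroid effect, HCC1806 minus BT474, was 2.02 ± 0.29 at day 10 (adjusted p = 0.0220, with 1.35% of genes called, 0.956% higher and 0.392% lower) and 2.03 ± 0.29 at day 20 (adjusted p = 0.0158, with 2.77% called, 1.79% higher and 0.980% lower). The same difference was 1.97 without the first HCC1806 monolayer library and 2.00 without the second at day 10. Such a fit takes the lone monolayer to vary like the other groups, so the size alone is given. Only 3 of 12 fits that left out 1 library called the difference at each day, with adjusted p up to 0.175 at day 10 and 0.121 at day 20. Day 20 against day 10 gave -0.12 in HCC1806 (adjusted p = 0.741) and -0.13 in BT474 (adjusted p = 0.874). Per length BCL2 was a small part of the family, at 0.194 to 2.57 FPKM over the 16 libraries.

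MCL1 (ENSG00000143384, chromosome 1, 150574551 to 150579738, minus strand) encodes a short-lived anti-apoptotic protein that needs constant synthesis, and it was the most abundant member per length in 13 of 16 libraries. HCC1806 had 255 and 272 CPM in day 10 spheroids and 252 and 241 CPM in day 20 spheroids, against 168 and 179 CPM in monolayers. BT474 had 463 and 512 CPM in day 10 spheroids and 511 and 572 CPM in day 20 spheroids, against 481 and 522 CPM in monolayers. The HCC1806 groups did not overlap and the BT474 groups did. MCL1 rose by 0.62 ± 0.16 at day 10 in HCC1806 (adjusted p = 0.0436), while the day 20 value of 0.53 ± 0.16 missed the threshold (adjusted p = 0.0629). In BT474 the values were -0.09 (adjusted p = 0.513) and 0.12 (adjusted p = 0.350). The line difference of 0.71 ± 0.22 at day 10 was not called (adjusted p = 0.155). The HCC1806 day 20 value was 0.46 without the first monolayer library and 0.54 without the second.

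BCL2L1 (ENSG00000171552, chromosome 20, 31664452 to 31723989, minus strand) encodes BCL-XL, a long-lived anti-apoptotic protein, and a shorter pro-apoptotic splice form, which gene counts do not separate. In HCC1806 it stood at 75.0 and 75.3 CPM in day 10 spheroids and 83.5 and 79.3 CPM in day 20 spheroids, against 196 and 94.0 CPM in monolayers. In BT474 it stood at 79.6 and 83.8 CPM in day 10 spheroids and 85.8 and 78.2 CPM in day 20 spheroids, against 115 and 81.4 CPM in monolayers. All 8 spheroid libraries lay within 75.0 to 85.8 CPM, and the monolayers of each line were farther apart. No comparison called it: the HCC1806 values were -0.95 ± 0.33 (adjusted p = 0.116) and -0.83 ± 0.33 (adjusted p = 0.146) at day 10 and day 20, and the BT474 values -0.31 ± 0.12 (adjusted p = 0.111) and -0.25 ± 0.12 (adjusted p = 0.199). Single monolayer libraries moved these values. In HCC1806 they were -0.33 and -0.21 without the first monolayer library and -1.40 and -1.28 without the second. In BT474 they were -0.06 and 0.01 without the first and -0.52 and -0.46 without the second. The antisense RNA ABALON covers 43.0% of its exon bases and was itself listed at no more than 2.72 CPM. The strand setting of the counting is not given, so reads of such a pair cannot be told apart.

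BAX (ENSG00000087088, chromosome 19, 48954815 to 48961798, plus strand), a pore-forming effector that waits in the cytosol, fell in HCC1806 spheroids. Its promoter is shown because 4 copies of the E-box CACGTG, in capitals, lie within it. At least 1 copy lies in 7.26% of 35116 RefSeq promoters of the same 300-base length, on either strand. How many hold 4 was not counted. The window runs from 250 bases before to 50 after the RefSeq start, and the matches are a description of the letters, not of binding.
BAX promoter, GRCh38.p14 chr19:48954625-48954924, plus strand: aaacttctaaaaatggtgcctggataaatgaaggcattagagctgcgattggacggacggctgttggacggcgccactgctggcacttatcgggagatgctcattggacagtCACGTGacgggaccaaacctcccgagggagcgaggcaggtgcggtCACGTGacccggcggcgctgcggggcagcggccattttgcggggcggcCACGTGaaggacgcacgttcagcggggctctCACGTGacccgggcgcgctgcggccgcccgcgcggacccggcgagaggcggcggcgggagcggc
In HCC1806 BAX stood at 72.7 and 60.7 CPM in day 10 spheroids and 58.8 and 60.7 CPM in day 20 spheroids, against 152 and 117 CPM in monolayers. BT474 had 55.9 and 64.0 CPM in day 10 spheroids and 59.6 and 56.1 CPM in day 20 spheroids, against 51.3 and 48.6 CPM in monolayers. Neither line showed overlap between spheroids and monolayers, and the HCC1806 monolayers were the highest of these 12 libraries. BAX fell by 1.00 ± 0.19 at day 10 (adjusted p = 0.0171) and by 1.15 ± 0.19 at day 20 (adjusted p = 0.00925) in HCC1806. In BT474 the values of 0.21 ± 0.09 (adjusted p = 0.178) and 0.22 ± 0.10 (adjusted p = 0.144) were not called. The line difference was -1.38 ± 0.27 at day 20 (adjusted p = 0.0380) and -1.22 ± 0.27 at day 10 (adjusted p = 0.0684). Without the first HCC1806 monolayer library the day 20 fall was 0.97, and without the second it was 1.36.

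BAK1 (ENSG00000030110, chromosome 6, 33572547 to 33580293, minus strand), the effector that resides in the mitochondrial membrane, moved little with culture. HCC1806 had 35.2 and 35.2 CPM in day 10 spheroids and 35.7 and 37.1 CPM in day 20 spheroids, against 38.6 and 40.6 CPM in monolayers. In BT474 it stood at 51.6 and 61.3 CPM in day 10 spheroids and 55.3 and 53.8 CPM in day 20 spheroids, against 66.6 and 59.0 CPM in monolayers. The fold changes of -0.15, -0.10, -0.20 and -0.19 in HCC1806 day 10, HCC1806 day 20, BT474 day 10 and BT474 day 20 were not called, with adjusted p from 0.166 to 0.708.

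BCL2L11 (ENSG00000153094, chromosome 2, 111119378 to 111168447, plus strand) encodes BIM, a BH3-only protein that binds all anti-apoptotic members and accumulates when growth signals or matrix contact are lost. It was called higher in spheroids of both lines at both days, but the HCC1806 day 20 call held in only 4 of 12 fits that each left out 1 library (0.66 to 0.91, adjusted p up to 0.177). FOXO factors are known to induce it, and its promoter is shown because it holds 1 copy of the FOXO motif GTAAACA, in capitals, which 3.42% of promoters hold on either strand.
BCL2L11 promoter, GRCh38.p14 chr2:111120664-111120963, plus strand: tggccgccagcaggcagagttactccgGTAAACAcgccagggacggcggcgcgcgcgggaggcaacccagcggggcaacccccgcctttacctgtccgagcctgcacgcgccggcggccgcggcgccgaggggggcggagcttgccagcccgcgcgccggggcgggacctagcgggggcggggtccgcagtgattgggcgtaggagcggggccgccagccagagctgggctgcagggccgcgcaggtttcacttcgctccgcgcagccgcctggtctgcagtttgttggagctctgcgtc
In HCC1806 BCL2L11 stood at 32.8 and 35.1 CPM in day 10 spheroids and 19.9 and 23.8 CPM in day 20 spheroids, against 12.3 and 13.6 CPM in monolayers. BT474 had 55.9 and 56.0 CPM in day 10 spheroids and 59.6 and 68.5 CPM in day 20 spheroids, against 41.1 and 42.0 CPM in monolayers. No 2 of the 3 groups of a line overlapped. In HCC1806 it rose by 1.41 ± 0.17 at day 10 (adjusted p = 0.00357) and by 0.78 ± 0.17 at day 20 (adjusted p = 0.0212). It was the single member called between the days in HCC1806, where it fell by 0.62 ± 0.11 at day 20 against day 10 (adjusted p = 0.00342, with 6.80% of genes called, 3.20% higher and 3.60% lower). In BT474 it rose by 0.38 ± 0.11 at day 10 (adjusted p = 0.0329) and by 0.64 ± 0.11 at day 20 (adjusted p = 0.00140), and day 20 against day 10 gave 0.26 ± 0.11 (adjusted p = 0.468). The line difference was 1.02 ± 0.23 at day 10 (adjusted p = 0.0741) and 0.14 ± 0.23 at day 20 (adjusted p = 0.826). The opposite-strand gene MIR4435-2HG shares 10.9% of its exon bases and stood at 0.256 to 18.6 CPM.

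PMAIP1 (ENSG00000141682, chromosome 18, 59899948 to 59904306, plus strand) encodes NOXA, a BH3-only protein that binds MCL1 and is induced by p53 and by the stress factor ATF4. Its promoter is shown because it holds 1 copy of the CRE core TGACGT, read here from the other strand as the ACGTCA in capitals, which 7.98% of promoters hold on either strand.
PMAIP1 promoter, GRCh38.p14 chr18:59899746-59900045, plus strand: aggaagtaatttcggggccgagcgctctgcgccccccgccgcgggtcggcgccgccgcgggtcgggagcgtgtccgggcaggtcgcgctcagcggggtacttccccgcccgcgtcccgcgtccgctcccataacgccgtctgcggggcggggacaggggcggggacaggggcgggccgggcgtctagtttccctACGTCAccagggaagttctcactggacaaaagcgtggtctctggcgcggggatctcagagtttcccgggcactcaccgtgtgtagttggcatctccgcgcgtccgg
In BT474 PMAIP1 stood at 36.7 and 39.5 CPM in day 10 spheroids and 35.3 and 38.7 CPM in day 20 spheroids, against 15.2 and 20.4 CPM in monolayers. In HCC1806 it stood at 15.4 and 15.04 CPM in day 10 spheroids and 12.1 and 14.9 CPM in day 20 spheroids, against 7.68 and 9.76 CPM in monolayers. Every spheroid library lay above the monolayers of its line. In BT474 it rose by 1.04 ± 0.15 at day 10 (adjusted p = 0.000388) and by 1.06 ± 0.15 at day 20 (adjusted p = 0.000316). The HCC1806 values of 0.82 ± 0.22 (adjusted p = 0.0508) and 0.66 ± 0.22 (adjusted p = 0.0881) missed the threshold, and the line differences of -0.23 and -0.41 were not called (adjusted p = 0.779 and 0.521).

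BBC3 (ENSG00000105327, chromosome 19, 47220822 to 47232766, minus strand) encodes PUMA, the main BH3-only target of p53. In BT474 it stood at 33.3 and 38.1 CPM in day 10 spheroids and 41.4 and 41.7 CPM in day 20 spheroids, against 23.0 and 21.3 CPM in monolayers. It rose by 0.64 ± 0.11 at day 10 (adjusted p = 0.00170) and by 0.92 ± 0.11 at day 20 (adjusted p = 9.32e-05). HCC1806 had 14.4 and 13.6 CPM in day 10 spheroids and 12.4 and 14.4 CPM in day 20 spheroids, against 82.8 and 4.31 CPM in monolayers (2212 and 155 counts). The 4 HCC1806 spheroid libraries lay between the 2 monolayers, so no direction can be read. The fold changes of -1.67 ± 0.96 and -1.73 ± 0.96 at day 10 and day 20 were not called (adjusted p = 0.307 and 0.279). They turned to 1.69 and 1.63 without the first monolayer library and stood at -2.58 and -2.64 without the second. The high library was the one with 14.9% of counts from mitochondrially encoded genes, and the part of that in the BBC3 value was not tested.

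BIK (ENSG00000100290, chromosome 22, 43110748 to 43129712, plus strand) encodes a BH3-only protein of the endoplasmic reticulum. In HCC1806 it stood at 17.2 and 18.0 CPM in day 10 spheroids and 13.1 and 14.6 CPM in day 20 spheroids, against 17.3 and 8.06 CPM in monolayers. BT474 had 21.9 and 25.9 CPM in day 10 spheroids and 24.8 and 30.0 CPM in day 20 spheroids, against 22.1 and 21.0 CPM in monolayers. No spheroid comparison with monolayers called it, and its lowest adjusted p there was 0.0712, in BT474 at day 20 (0.36 ± 0.12). Its HCC1806 value went to 1.12 at day 10 and 0.77 at day 20 without the first monolayer library. Over all fits that left out 1 library it ranged from 0.01 to 1.12 at day 10 and from -0.34 to 0.77 at day 20. No direction can therefore be read at day 20. Between day 20 and day 10 in BT474 edgeR called 0 of 9 members, with 0.281% of genes called (0.0922% higher, 0.189% lower). At an unadjusted p under 0.05 it had 3 of 9 members (MCL1, BBC3 and BCL2L11), beside 1913 of 20606 genes. DESeq2, limma on FPKM and voom called 0 members.

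**Figure D2:**
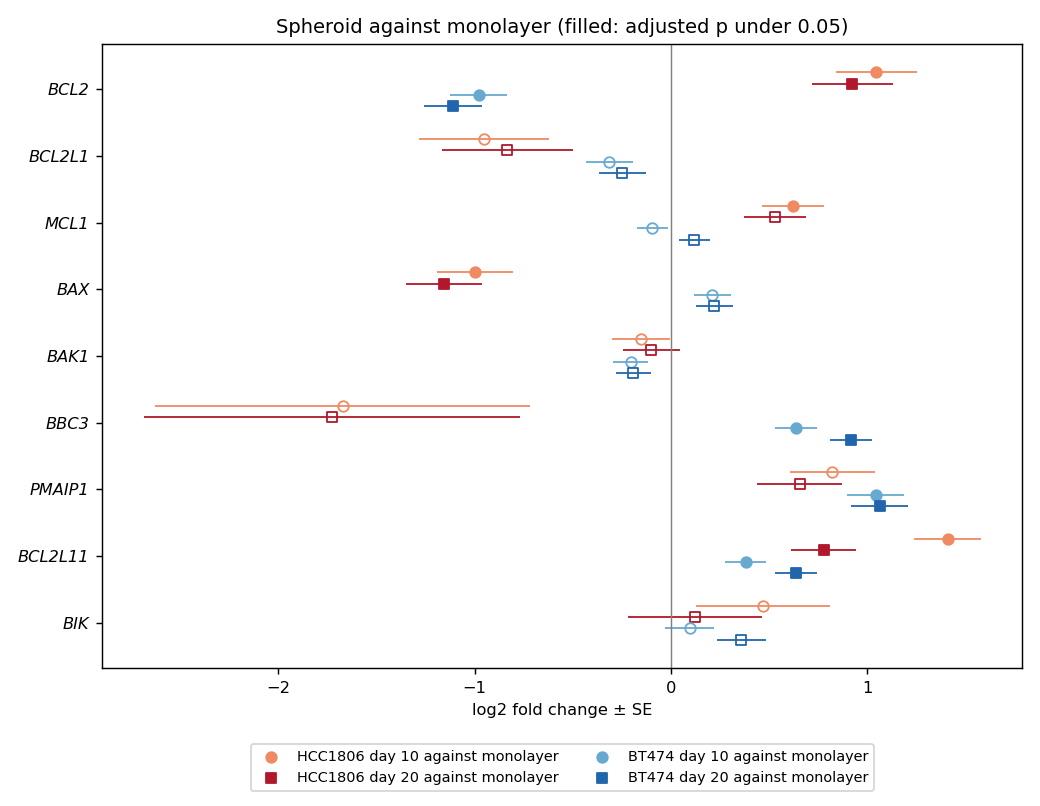
Log2 fold change ± SE of the 9 tested members in day 10 and day 20 spheroids against monolayers of HCC1806 (orange and red) and BT474 (light and dark blue), with filled points where the adjusted p is under 0.05. BCL2 lies at 1.05 and 0.92 in HCC1806 and at -0.98 and -1.11 in BT474, and BCL2L11 is filled in all 4 comparisons.

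The strength of these calls rests on the libraries in the fit. The HCC1806 comparisons with monolayers used the 12 HCC1806 and BT474 libraries, and with the 6 HCC1806 libraries alone the values changed little (BCL2 0.99, MCL1 0.56, BAX -1.05 and BCL2L11 1.35 at day 10) while 0 members were called, with adjusted p of 0.156 to 0.342. The BT474 comparisons used 10 libraries without the HCC1806 monolayers. That pair was kept out because earlier results of these data showed it to differ far more than other pairs. With the 6 BT474 libraries alone the same 4 members were called at both days, and with the HCC1806 monolayers added to the fit 0 were called (BCL2 -0.98, adjusted p = 0.172, and PMAIP1 1.05, adjusted p = 0.156, at day 10). Leaving out 1 library at a time kept BCL2 between 1.02 and 1.11 in HCC1806 at day 10, with 8 of 12 fits calling it, between 0.89 and 0.95 at day 20, with 4 of 12 calling it (adjusted p up to 0.149), and between -1.21 and -0.70 in BT474 at day 10, with 10 of 10 calling it. MCL1 in HCC1806 at day 10 was called in 2 of 12 such fits, at 0.55 to 0.68, and BCL2L11 in 12 of 12 at day 10, at 1.32 to 1.47, against 4 of 12 at day 20. The 2 fits that called MCL1 were those without an HCC1806 monolayer, which leave out the spread of that pair. BAX in HCC1806 lost its call without either spheroid library of that day, and BCL2L11 in BT474 at day 10 without either day 10 library or the first monolayer (adjusted p = 0.223, 0.111 and 0.0649). The line difference in BCL2 ranged from 1.76 to 2.27 at day 10 and from 1.77 to 2.28 at day 20. That in BAX at day 20 ranged from -1.58 to -1.18 and lost its call in most fits. For these differences too, fits without an HCC1806 monolayer leave out the spread of that pair.

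**Figure D3:**
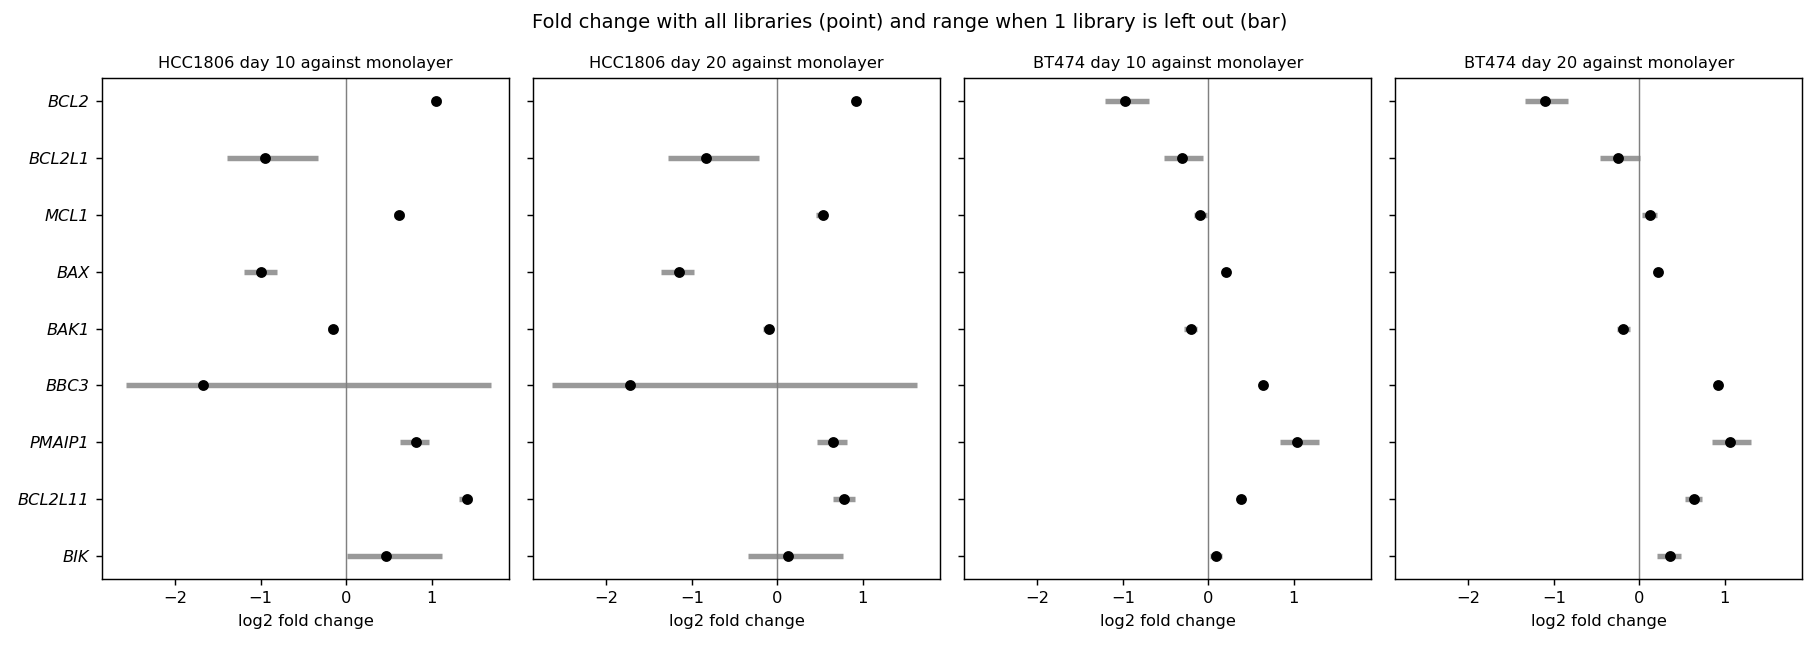
Log2 fold change of the 9 tested members with all libraries of the fit (points) and its range when each library is left out in turn (bars), for day 10 and day 20 spheroids against monolayers. The HCC1806 bars for BBC3 run from -2.58 to 1.69 and from -2.64 to 1.63 across 0, and the bars for BCL2, BAX and BCL2L11 in HCC1806 stay on one side of 0.

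Compared directly as spheroids, HCC1806 carried more BCL2 and less of most other members than BT474. At day 10 BCL2 and BAX were higher and MCL1, BAK1, BBC3, PMAIP1, BCL2L11 and BIK lower in HCC1806, 8 of 9 members called where 70.7% of all genes were called, 37.5% higher and 33.2% lower. At day 20 BCL2 was higher and the same 6 lower, 7 of 9 called with a background of 71.3% (37.7% higher, 33.6% lower), so the number of calls is near that of any genes between these lines. The median over the 9 members was -0.55 and -0.91 at day 10 and day 20, against 0.08 and 0.09 over all genes. BCL2 was higher by 1.00 ± 0.15 at day 10 (adjusted p = 2.71e-05) and 1.01 ± 0.15 at day 20 (adjusted p = 2.89e-05). BBC3 was lower, at -1.22 ± 0.11 and -1.55 ± 0.11 (adjusted p = 1.98e-07 and 1.73e-08), and PMAIP1 at -1.20 ± 0.15 and -1.38 ± 0.15 (adjusted p = 4.80e-06 and 1.30e-06). BCL2L11 differed by -0.60 ± 0.11 at day 10 and -1.48 ± 0.11 at day 20 (adjusted p = 0.000190 and 2.55e-08), and MCL1 by -0.76 ± 0.08 and -1.06 ± 0.08 (adjusted p = 7.85e-07 and 2.44e-08). BCL2L1 differed by 0.00 ± 0.12 and 0.06 ± 0.12 (adjusted p = 0.982 and 0.651).

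**Figure D4:**
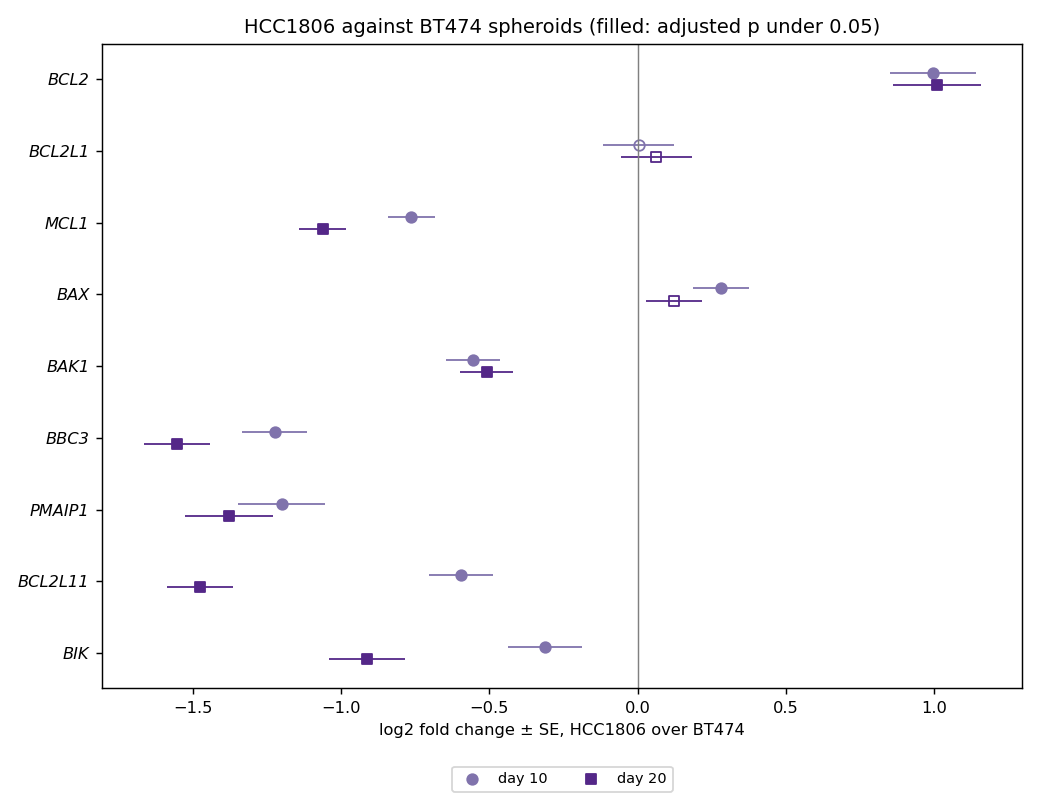
Log2 fold change ± SE of HCC1806 over BT474 spheroids for the 9 tested members at day 10 (circles) and day 20 (squares), with filled points where the adjusted p is under 0.05. BCL2 lies at 1.00 and 1.01, BCL2L1 at 0.00 and 0.06, and the 4 BH3-only genes lie below 0.

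In monolayers the 2 lines grown in RPMI differed most in PMAIP1. It had 556 counts over the 2 HCC1806 libraries and 8 over the 2 ZR-75-30 libraries, 7.68 and 9.76 CPM against 0.111 and 0.186 CPM. After scaling by library size HCC1806 had 63.8 times as much. The 95% bounds of 32.2 and 149 leave out the spread between libraries and take each count as an independent event. ZR-75-30 was likewise far below CAL148 and BT474, with ratios of 53.7 (27.1 to 125) and 128 (65.0 to 298). Among counts of 1 to 20, even values outnumbered odd ones 1.51 to 2.04 times. Counts may therefore not be independent, and these bounds may be too narrow. In HCC1806 against ZR-75-30 PMAIP1 was called higher (5.89 ± 0.55, adjusted p = 1.52e-05), with 4 of 9 members and 39.0% of genes called (22.8% higher, 16.2% lower). MCL1 at -1.05 ± 0.20 (adjusted p = 0.00175), BCL2L11 at -0.83 ± 0.19 (adjusted p = 0.00570) and BIK at -1.33 ± 0.48 (adjusted p = 0.0471) were lower in HCC1806. The BIK call held in 4 of 16 fits that left out 1 library, from -2.02 without the first HCC1806 library to -0.51 without the second ZR-75-30 library (adjusted p = 0.441). Among the 8 monolayer libraries alone PMAIP1 was the 1 member still called. BAX stood at 152 and 117 CPM in HCC1806 against 66.3 and 209 CPM in ZR-75-30, where the second library had the 17.7% mitochondrial share, and its value of -0.06 turned to 1.04 without that library.

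Of the lines grown in DMEM, CAL148 monolayers held less BCL2, BAK1, PMAIP1 and BIK than BT474 monolayers, 4 of 9 members called where 24.0% of genes were called, 10.2% higher and 13.8% lower. BCL2 stood at 6.11 and 2.42 CPM in CAL148 against 22.8 and 31.8 CPM in BT474 (-2.68 ± 0.39, adjusted p = 0.000602), the lowest level of any group. BAK1 stood at 22.3 and 22.8 CPM against 66.6 and 59.0 CPM (-1.48 ± 0.22, adjusted p = 0.000733). BIK stood at 4.45 and 8.89 CPM in CAL148 against 22.1 and 21.0 CPM in BT474 (-1.70 ± 0.49, adjusted p = 0.0260), and PMAIP1 at 11.3 and 4.13 CPM against 15.2 and 20.4 CPM (-1.21 ± 0.40, adjusted p = 0.0486). The PMAIP1 call held in 4 of 16 fits that left out 1 library, from -2.17 without the first CAL148 library to -0.68 without the second (adjusted p = 0.217). With the 8 monolayer libraries alone BCL2 alone was called. With counts summed per line, the triple-negative lines against the ERBB2-positive lines gave 0 called members and 0% of 18909 genes in edgeR. At an unadjusted p under 0.05 there were 0 members, beside 1020 of 18909 genes, and DESeq2 called 0 members.

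Per length, MCL1 held first place in most libraries, while second place varied. MCL1 led in all libraries but HCC1806 monolayer replicate 1, led by BCL2L1, and HCC1806 monolayer replicate 2 and ZR-75-30 replicate 2, both led by BAX. MCL1 stood at 2.58 and 2.73 times the FPKM of BCL2L1 in HCC1806 day 10 spheroids and at 2.29 and 2.30 times in day 20 spheroids, against 0.648 and 1.44 times in monolayers. The value of 0.648 comes from HCC1806 monolayer replicate 1, with a mitochondrial share of 14.9%. ZR-75-30 replicate 2 had a share of 17.7%. The part of these shares in the order of members was not tested. In BT474 the ratio was 4.41 and 4.63 at day 10 and 4.51 and 5.54 at day 20, against 3.17 and 4.86 in monolayers. The 4 BH3-only genes made up 24.9% and 25.0% of the summed family FPKM in BT474 day 10 spheroids and 25.0% and 26.4% in day 20 spheroids, against 18.1% and 18.7% in monolayers. In HCC1806 their share was 21.3% and 21.8% at day 10 and 17.4% and 19.9% at day 20, against 22.1% and 10.8% in monolayers. Effectors took 24.3% to 27.2% of the family in HCC1806 spheroids, against 33.9% and 42.3% in HCC1806 monolayers. These shares carry no test.

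**Figure D5:**
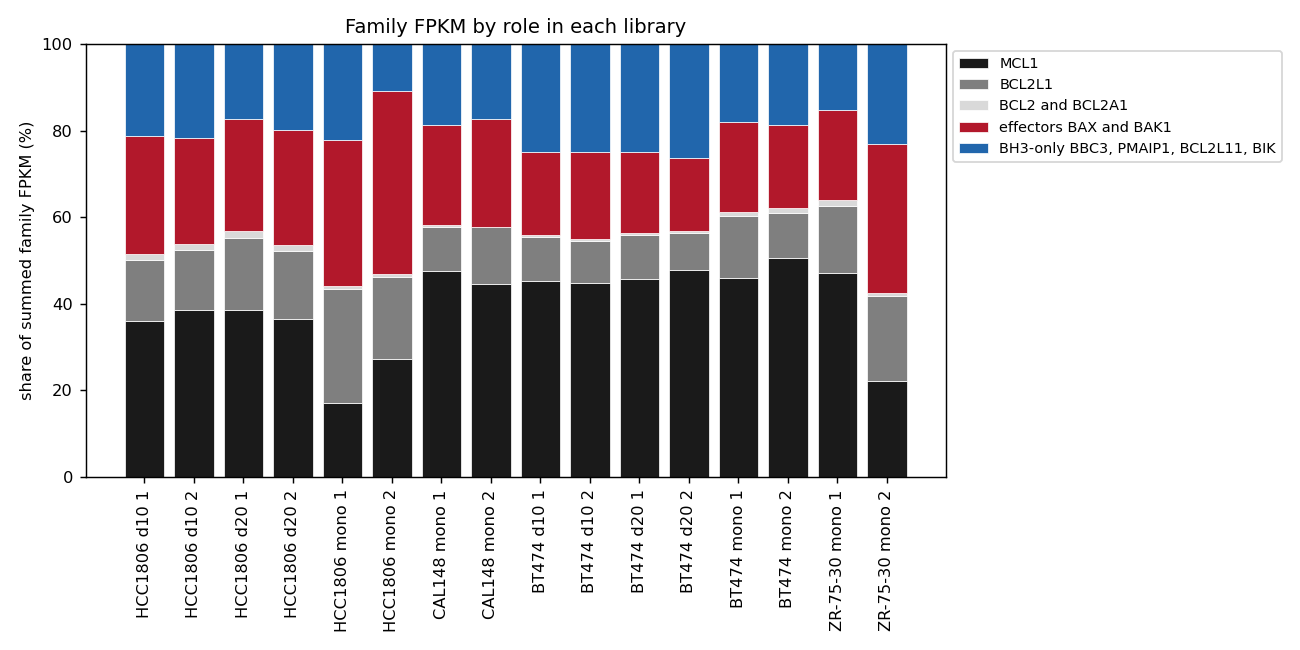
Share of the summed family FPKM (percent, stacked bars from 0 to 100) in each of the 16 libraries, with MCL1, BCL2L1, BCL2 with BCL2A1, the effectors and the BH3-only genes in separate colours. The blue BH3-only band is 24.9% to 26.4% in the 4 BT474 spheroid libraries, against 18.1% and 18.7% in the BT474 monolayers.

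The wider apoptosis genes were called in part, and the HCC1806 calls turned largely on single libraries. The all-gene shares called were 8.72% and 11.1% in HCC1806 and 12.2% and 14.6% in BT474 at day 10 and day 20, and several list counts lie near them. Of 12 tested genes related to the family, HCC1806 day 10 spheroids against monolayers raised BMF, a BH3-only gene linked to detachment (1.64 ± 0.37, adjusted p = 0.0316), and lowered BCL2L12 (-1.58 ± 0.22, adjusted p = 0.00571) and the mitophagy receptor BNIP3 (-0.76 ± 0.19, adjusted p = 0.0452), with a median of -0.35. BMF and BNIP3 kept their calls in 2 of 12 fits that left out 1 library and BCL2L12 in 10. The list had a median of 0.17 without the first monolayer library and of -0.68 without the second. Of 6 tested inhibitor of apoptosis genes, which bind caspases or their activators, 3 rose in HCC1806 at both days, with medians of 0.93 and 0.96. BIRC2 stood at 77.9 and 88.1 CPM in day 10 spheroids against 34.8 and 52.2 CPM in monolayers (0.96 ± 0.19, adjusted p = 0.0181), BIRC3 rose by 1.97 ± 0.43 (adjusted p = 0.0263) and XIAP by 0.89 ± 0.21 (adjusted p = 0.0359). At day 10 BIRC2 was called in 7 of 12 such fits, BIRC3 in 4 (adjusted p up to 0.163) and XIAP in 2 (0.56 to 1.22, adjusted p up to 0.228). None of the 6 rose in BT474, where BIRC5 was called lower at day 10 (-0.36 ± 0.10, adjusted p = 0.0322), in 3 of 10 such fits (-0.48 to -0.21, adjusted p up to 0.218). The line difference of those genes was not called for any of the 6. In HCC1806 at day 10 CYCS, cytochrome c, fell by 0.87 ± 0.22 (adjusted p = 0.0425), the 1 call among 11 caspase and apoptosome genes. CYCS kept it in 2 of 12 such fits, with values of -1.20 to -0.54. The number of the list called also moved when either monolayer library was left out. In BT474 at day 10 3 of those 11 rose, with CASP10 at 1.18 and 1.31 CPM in spheroids against 0.245 and 0.334 CPM in monolayers (2.05 ± 0.35, adjusted p = 0.00168), HTRA2 at 0.42 ± 0.10 (adjusted p = 0.0117) and CASP9 at 0.59 ± 0.15 (adjusted p = 0.0188). CASP10 was called in 10 of 10 such fits, HTRA2 in 8 and CASP9 in 7. BT474 also raised BOK, an effector-like member (0.63 ± 0.12, adjusted p = 0.00347), and BNIP3L (0.47 ± 0.09, adjusted p = 0.00276), 2 of 11 related genes at day 10. With the HCC1806 monolayers added to the fit, 0 genes of these BT474 lists were called by edgeR at day 10, and with BT474 alone 3 related, 3 caspase and 1 inhibitor genes were.

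Known regulators of PMAIP1, BBC3 and BCL2 gave mixed counts. Of 8 ATF4 and CHOP stress genes 3 rose in BT474 day 10 spheroids against monolayers and 4 rose at day 20, none fell, and the medians were 0.39 and 0.49 against 0 over all genes and 12.2% and 14.6% of genes called. With the HCC1806 monolayers in the fit 0 and 1 of the 8 rose, and with BT474 alone 2 and 4. DDIT4, a stress-induced brake on mTORC1, stood at 73.6 and 99.4 CPM at day 10 and 133 and 148 CPM at day 20, against 39.7 and 34.2 CPM in monolayers (1.17 ± 0.12, adjusted p = 4.15e-05, and 1.94 ± 0.12, adjusted p = 6.48e-07). CHAC1 and SESN2 rose at day 20 by 0.74 ± 0.17 (adjusted p = 0.0105) and 0.59 ± 0.10 (adjusted p = 0.00153). In HCC1806 the 8 had medians of -1.81 at day 10 and -1.67 at day 20 and no call, and the first monolayer library set that sign. Without it the median at day 10 was 0.60, and without the second it was -2.56. Of 20 p53 targets outside the family 2 rose and 1 fell in BT474 at day 10. BTG2, which slows the cell cycle, stood at 136 and 140 CPM in spheroids against 68.8 and 50.7 CPM in monolayers (1.16 ± 0.12, adjusted p = 8.08e-05), while CDKN1A, the p21 cell cycle inhibitor, fell by 0.88 ± 0.15 (adjusted p = 0.00242). In HCC1806 TP53INP1 and ZMAT3 were called higher, 2 of 20 beside 8.72% of all genes (2.14 ± 0.45, adjusted p = 0.0232, and 1.05 ± 0.21, adjusted p = 0.0199, at day 10). They kept the call in 4 and 6 of 12 fits that left out 1 library, with values of 1.55 to 3.13 and 0.96 to 1.15. The number of the list called also moved when either monolayer library was left out. Of 10 oestrogen receptor genes in BT474, the line in which BCL2 fell, TFF1 rose by 2.35 ± 0.10 (adjusted p = 9.36e-08) and CCND1 fell by 1.05 ± 0.08 (adjusted p = 1.66e-06), with 3 up and 2 down at day 10. ESR1 itself was at -0.11 (adjusted p = 0.803).

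Markers of other cell types and states also differed between spheroids and monolayers. In HCC1806 the 7 luminal markers summed to 539 to 556 CPM at day 10 and 407 to 412 CPM at day 20, against 228 and 317 CPM in monolayers. The 7 fibroblast markers summed to 65.9 to 66.1 CPM and 81.3 to 95.8 CPM, against 23.7 and 48.0 CPM, and neither sum overlapped between spheroids and monolayers. In HCC1806 the 7 basal markers summed to 4331 to 4782 CPM at day 10 and 8295 to 8727 CPM at day 20. Its monolayers had 5510 and 6838 CPM. The 5 epithelial markers summed to 3389 to 3718 CPM and 2458 to 2677 CPM, against 3726 and 5798 CPM. In BT474 the 7 fibroblast markers also summed higher, at 93.4 to 111 CPM and 79.7 to 90.4 CPM, against 74.6 and 76.9 CPM. Few of them carried that sum. Above 3 counts per group were 3 of the 7 at day 10 and 2 each at day 20 and in monolayers. DCN and PDGFRB were at 0 counts in every BT474 group. The 7 basal markers there summed to 77.8 to 88.5 CPM and 87.3 to 87.9 CPM, against 91.1 and 109 CPM. The 7 leukocyte markers summed to 15.98 and 20.5 CPM in day 10 spheroids and 25.3 and 24.6 CPM in day 20 spheroids, against 0.808 and 0.429 CPM in monolayers. Nearly all of it was LYZ, lysozyme, at 15.7 and 20.4 CPM and at 25.2 and 24.6 CPM, against 0.367 and 0.286 CPM, while PTPRC, the pan-leukocyte marker CD45, was at 0 counts in all 6 BT474 libraries. Mitochondrially encoded genes took 3.04% to 5.20% of counts in BT474 spheroids, against 1.88% and 1.91% in monolayers, and the 8 proliferation genes summed to 704 to 720 CPM, against 863 and 852 CPM. The part of these in the members' values was not tested.

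Across the 16 libraries the gene whose level ran most like BCL2 was SLITRK6, with a Pearson r of 0.954 on log2(CPM + 1), among 13219 protein-coding genes with a mean of at least 1 CPM. SOX4 ran most like BCL2L11 (r = 0.954), MC1R most like PMAIP1 (r = 0.970) and SCYL3 most like MCL1 (r = 0.979). Among the members themselves the highest values were 0.838 for MCL1 and BCL2L11 and 0.799 for BAK1 and BIK, and the lowest was -0.615 for BAX and PMAIP1. These are descriptions, since the libraries come in pairs from 4 lines and share their lines' levels.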

How the data were processed

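RNA from 16 samples was sequenced as read pairs after poly(A) selection, per the labels' protocols. HISAT2 2.2.1 and featureCounts 2.0.6 were used with GRCh38, per the submitters' processing notes, and strand and multi-mapping settings are not given in the sources used here. The deposited table holds whole-number counts per gene, made by the authors. All 10 members equal GENCODE 29 in position. Among counts of 1 to 20, even values outnumbered odd ones 1.51 to 2.04 times. The FPKM values, also deposited by the authors, served for levels per length and 1 alternative.

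Tests used R 4.3.3 and edgeR 4.0.16 (TMM scaling, filterByExpr at a minimum of 10 counts and 15 in total, robust quasi-likelihood fit, Benjamini-Hochberg adjustment). SE is the absolute log2 fold change over the root of F. Comparisons with HCC1806 monolayers and line differences used 12 libraries, the other spheroid comparisons 10 without those monolayers, monolayers of lines 16, and subtype 4 sums per line. Alternatives were another scaling, other filters, halved counts, other fits, blocking by replicate number, dropping single libraries, DESeq2 1.42.0, and limma 3.58.1 on log2(FPKM + 0.1) and with voom weights. Promoters are RefSeq entries of GRCh38.p14, found for 8 of 10 members. They were searched for FOXO, E-box, CRE, GC box and oestrogen response element motifs, and chosen matches are shown. The GC box GGGCGG, in 45.0% of promoters, also lies in entries of BCL2L1, BAX, BAK1, PMAIP1 and BCL2L11. The BBC3 entry holds 1 E-box, and the BCL2 entry holds none of these motifs. Figures used matplotlib 3.10.9.

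All 10 members are named, and of each list the 3 highest and 3 lowest called genes could be. The members, the lists and the libraries of the 10-library fits were chosen with earlier results of these data known. BCL2L2 and other family genes outside the 10 count as related genes. Same-numbered replicates deviated together with r of -0.590 to 0.200, so numbers were not used as pairs.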

Additional observations from a re-analysis of the deposited data

Results flagged for a closer look

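The effect of spheroid growth on BCL2 differed between the lines. The difference in log2 fold change, HCC1806 minus BT474, was 2.02 at day 10 (adjusted p = 0.0220) and 2.03 at day 20 (adjusted p = 0.0158), from edgeR's test of the difference itself. At each day 3 of 12 fits that left out 1 library called it, with adjusted p up to 0.175 and 0.121. BCL2 was higher in 4 of 4 HCC1806 spheroid libraries and lower in 4 of 4 BT474 spheroid libraries than in any monolayer of the same line. Those libraries come from 2 separate days, and the share of all genes that separate in this way was not counted. BAX differed in the same test by -1.38 at day 20 (adjusted p = 0.0380), called in 2 of 12 such fits. All 3 tests use the HCC1806 monolayer pair, in which mitochondrially encoded genes took 14.9% and 0.559% of counts, and the part of that in them was not tested. A fit without 1 library of that pair leaves out the spread of the pair. A call in such a fit therefore does not show that the result holds.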

How the results depend on the processing

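Of 42 called member results, 754 of 936 alternative values kept direction and call, 182 kept direction and lost the call, and 0 reversed. Of 75 results that were not called, 6 of 1575 alternative values reversed with a call. BBC3 went to 1.69 and 1.63 in HCC1806 day 10 and day 20 against monolayers and to 1.03 and 0.73 in the day 10 and day 20 line differences without HCC1806 monolayer replicate 1, and to -2.58, -2.64, -3.23 and -3.56 without replicate 2. BAX went to 1.04 in HCC1806 against ZR-75-30 without ZR-75-30 replicate 2 and to -0.68 without replicate 1, and PMAIP1 to 2.36 in the subtype comparison with 8 libraries as units and the replicate block. The counts of members called moved with the libraries in the fit and with the method, and the cause was not tested. In HCC1806 day 10 against monolayer (4 called) voom gave 0, the 16-library fit 1 and HCC1806 alone 0. At day 20 (3 called) DESeq2 gave 5, voom 0, the 16-library fit 1 and HCC1806 alone 0. In HCC1806 day 20 against day 10 (1 called) and BT474 day 10 and day 20 against monolayer (4 each) the 12-library and 16-library fits gave 0. In the day 10 line difference (1 called) no filter gave 2, DESeq2 4, limma on FPKM 2, voom 0 and the 16-library fit 0, and at day 20 (2 called) voom and the 16-library fit gave 0. Between the lines as spheroids the 12-library and 16-library fits gave 5 and 3 at day 10 (8 called), and the 16-library fit 3 at day 20 (7 called). HCC1806 against ZR-75-30 (4 called) gave 0 with voom and 1 with monolayers alone, and CAL148 against BT474 (4 called) gave 8 and 1. Subtype (0 called) gave 2 with 8 libraries as units. Leaving out 1 library gave 1 to 7 and 0 to 7 called in HCC1806 day 10 and day 20, 1 to 1 in HCC1806 day 20 against day 10, 3 to 5 and 4 to 5 in BT474, 0 to 0 in BT474 day 20 against day 10, 0 to 6 in each line difference, 6 to 8 and 7 to 7 between spheroids, 3 to 5 and 2 to 6 between monolayers, and 0 to 0 for subtype. With 2 libraries a group, such a fit takes the lone library to vary like the others. The replicate block gave 1 call in the day 20 line difference, and the deviations of same-numbered replicates correlated at -0.590 to 0.200, above 0.1 only in HCC1806 day 20 against day 10. Pairing the numbers crosswise, chosen after seeing the data, gave 3 calls in HCC1806 day 20 against monolayer, 8 in the day 10 spheroids and 4 in HCC1806 against ZR-75-30.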
